A study of Homo sapiens with 8 samples.

Results

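The death receptors and the proteins that regulate caspase-8 were followed here through 10 genes, chosen by symbol from the 61806 genes of the deposited table. They are the receptors TNFRSF10B, TNFRSF10A, TNFRSF10D, FAS and TNFRSF1A, the ligand TNFSF10, and the intracellular proteins FADD, CASP8, CFLAR and RIPK1. All 10 were expressed highly enough to be tested. They were measured in wild-type N/TERT-1 keratinocytes, an immortalized human epidermal line, with 4 libraries from cells given ethanol, the solvent, and 4 from cells given oligomycin and antimycin A (O/A). The labels call the 4 libraries of a condition biological replicates. Oligomycin blocks the mitochondrial ATP synthase and antimycin A blocks complex III of the respiratory chain. Treatment lasted 4 hours by the paper, whereas the sample labels give neither time nor dose. Imaging of N/TERT cells that expressed a cholesterol biosensor used 10 µM oligomycin with 4 µM antimycin A. N/TERT-1 is an immortalized line, so its receptor levels are those of cultured cells and not of skin.

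Death receptors are members of the TNF receptor family that carry a death domain in their cytoplasmic tail. When TRAIL (the product of TNFSF10) or FAS ligand binds, the adaptor FADD joins the receptor and recruits caspase-8, which is activated there and starts apoptosis. CFLAR encodes c-FLIP, a relative of caspase-8 that blocks this activation, while the TNF receptor TNFRSF1A signals first through RIPK1 and ubiquitin ligases towards NF-kB and can form a complex with FADD and caspase-8 later. TNFRSF10B (DR5) has been described as a target of CHOP, the product of DDIT3, a transcription factor of the stress response to unfolded proteins and to mitochondrial damage. Keratinocytes are known to respond to TRAIL, FAS ligand and TNF.

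The ethanol libraries held 17210404 to 20999927 counts and the O/A libraries 17689760 to 19263046. The 6 keratinocyte markers examined were all tested, with a summed level of 3124 to 3373 FPKM (fragments per kilobase of exon, scaled to the library total) in ethanol and 2815 to 2963 FPKM in O/A. The 3 leukocyte markers summed to 0.40 to 0.59 FPKM in ethanol and 0.65 to 0.88 FPKM in O/A, nearly all of it CD68, while the defining markers PTPRC and CD3E had at most 1 count in any library. The summed levels of 4 fibroblast markers (2.40 to 2.95 and 2.41 to 2.63 FPKM), 4 melanocyte markers (0.33 to 0.64 and 0.27 to 0.66 FPKM) and 3 endothelial markers (at most 0.06 FPKM) overlapped between conditions, and COL1A2, MLANA and TYR had at most 1 count in any library. The part of the lower keratinocyte sum and the higher leukocyte sum in the results was not tested. Here and below, a lower level in such bulk RNA cannot tell fewer expressing cells from less RNA per cell.

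Under O/A the receptors TNFRSF10B, TNFRSF10A and FAS rose, and the adaptor FADD and the initiator caspase CASP8 fell. TNFRSF10B rose 1.86-fold, TNFRSF10A 1.36-fold and FAS 1.28-fold, while FADD fell by 42.2% and CASP8 fell by 29.7%. The decoy receptor TNFRSF10D, the TNF receptor TNFRSF1A, the ligand TNFSF10, the inhibitor CFLAR and the kinase RIPK1 were not called. A gene was called upregulated or downregulated with an absolute log2(FC) above 0.25 and, in edgeR's quasi-likelihood test, an adjusted p of 0.05 or less (Benjamini-Hochberg, 14893 genes). This gave 5 of 10 members, 3 upregulated and 2 downregulated, where the same rule called 34.7% of all genes tested, 15.8% upwards and 18.9% downwards. The median log2(FC) of the 10 genes was 0.02 and that of all genes tested was 0.00, so the members did not move in a common direction. In 5 of the 10 members the O/A libraries did not overlap the ethanol libraries, a separation seen for 47.6% of all genes tested.

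**Figure D1:**
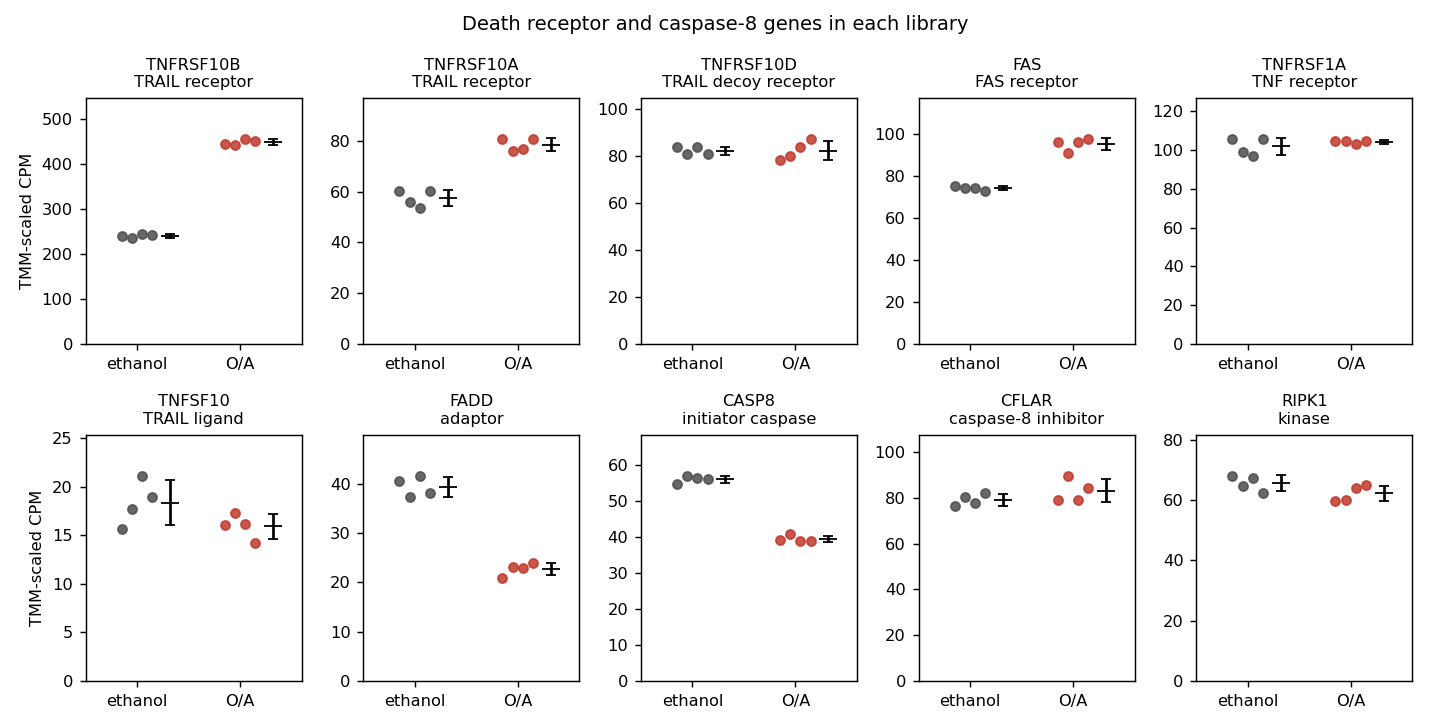
TMM-scaled CPM (counts relative to the scaled library total, y axis from 0) of each of the 10 genes in the 4 ethanol libraries (grey) and the 4 O/A libraries (red), with the mean and SD beside each group in black. The groups are apart for TNFRSF10B, TNFRSF10A, FAS, FADD and CASP8 and overlap for the other 5 genes.

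The promoters of FADD and CASP8, which fell, and of FAS, which rose, are shown as the sequences before the start of a transcript of each gene, to set members that moved in opposite directions side by side. They are the 250 bases upstream of the start nearest to that of the canonical transcript, from RefSeq (GRCh38.p14), all on the plus strand, at chr11:70203046-70203295 for FADD, chr2:201260286-201260535 for CASP8 and chr10:88990548-88990797 for FAS. Capitals mark GC boxes (GGGCGG on either strand).
FADD: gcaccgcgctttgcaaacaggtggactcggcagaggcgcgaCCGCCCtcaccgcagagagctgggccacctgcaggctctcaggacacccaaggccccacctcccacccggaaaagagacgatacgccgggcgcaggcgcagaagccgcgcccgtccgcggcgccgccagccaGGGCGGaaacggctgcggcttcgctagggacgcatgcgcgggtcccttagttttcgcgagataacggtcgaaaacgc
CASP8: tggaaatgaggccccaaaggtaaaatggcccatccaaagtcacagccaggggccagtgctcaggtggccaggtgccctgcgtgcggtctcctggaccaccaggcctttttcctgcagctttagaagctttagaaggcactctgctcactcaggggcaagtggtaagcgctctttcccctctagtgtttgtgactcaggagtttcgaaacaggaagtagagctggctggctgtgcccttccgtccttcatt
FAS: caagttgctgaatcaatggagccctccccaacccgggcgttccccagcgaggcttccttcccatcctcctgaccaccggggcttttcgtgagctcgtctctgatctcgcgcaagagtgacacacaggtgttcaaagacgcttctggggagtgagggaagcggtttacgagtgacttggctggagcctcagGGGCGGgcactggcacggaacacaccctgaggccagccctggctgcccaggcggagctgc
The FADD stretch held 2 GC boxes, as did that of RIPK1, which was not called, the FAS stretch held 1, and the CASP8 stretch held none. These counts depend on the start chosen. A FAS start 633 bases away held 2 and a CASP8 start 27073 bases away held 1, while those 116 and 2501 bases away kept the counts. For CFLAR the nearest start lay 2552 bases from the canonical one. The GC content of the printed stretches was 68.8% for FADD, 55.6% for CASP8 and 62.8% for FAS, with a median of 58.0% over the 35116 promoters of the table. Of the 7 members with a promoter there (also TNFRSF1A, TNFSF10, CFLAR and RIPK1), 4 held a GC box, which 42.6% of all promoters held. The composite element of C/EBP and ATF factors (TGATGNAA), an ETS site (CCGGAAG) and an NF-kB site, searched on both strands, were in none of the 7 and in 3.14%, 8.52% and 1.26% of all promoters. A match is only a run of letters, and no motif overlapped another in these 7 stretches. No promoter of TNFRSF10A, TNFRSF10B or TNFRSF10D was among the 35116, so these genes were not searched.

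TNFRSF10B, the TRAIL receptor also called DR5, is the most abundant of the 10 genes and moved most. It lies on chromosome 8 of GRCh38 from 23020133 to 23069031. As CPM (counts relative to the library total after TMM scaling) it had 240.3, 235.3, 243.6 and 241.1 in ethanol replicates 1 to 4 and 444.4, 440.7, 455.1 and 450.6 in O/A replicates 1 to 4. The lowest O/A library lay far above the highest ethanol library, and libraries of a group differed little, with a coefficient of variation of 1.45% in ethanol and 1.43% in O/A. The log2(FC) was 0.90 (standard error, SE, 0.026, adjusted p = 1.27e-33 in edgeR), and 3.24% of the genes tested had a higher one. An exact permutation test of the 4 libraries against 4, two-sided, gave p = 0.0286 for this gene, as it did for each of the 5 genes called, the smallest p that this number of libraries allows.

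TNFRSF10A (DR4), the second TRAIL receptor with a death domain, lies in the same cluster on chromosome 8 from 23190452 to 23225102. Its CPM was 60.1, 56.0, 53.4 and 60.1 in ethanol replicates 1 to 4, and 80.6, 75.8, 76.7 and 80.6 in O/A replicates 1 to 4. Every O/A library lay above every ethanol library, by a margin larger than the spread of either group (SD 3.27 CPM in ethanol and 2.55 CPM in O/A, n = 4 each). The log2(FC) was 0.45 (SE 0.041, adjusted p = 1.04e-13 in edgeR).

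TNFRSF10D (DcR2) binds TRAIL but has a truncated death domain and acts as a decoy. It lies between the other receptor genes, from 23135588 to 23164027. Its CPM was 80.7 to 83.8 in ethanol and 78.1 to 87.2 in O/A, so the groups overlapped fully. The log2(FC) was 0.00, and an interval of 1.96 standard errors to either side ran from -0.07 to 0.07, which leaves out changes of the size seen for TNFRSF10A or TNFRSF10B. The other decoy of the cluster, TNFRSF10C, was barely detected, at no more than 1 count per library, too few for any change to be detectable.

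FAS, the receptor of FAS ligand, lies on chromosome 10 from 88953813 to 89029605. Its CPM was 75.1, 74.5, 74.1 and 73.1 in ethanol replicates 1 to 4 and 96.1, 91.0, 96.2 and 97.6 in O/A replicates 1 to 4. The ethanol libraries lay close together and all 4 O/A libraries lay above them, at a log2(FC) of 0.36 (SE 0.035, adjusted p = 1.14e-12 in edgeR). On log2(FPKM + 1) the log2(FC) was 0.23, within the threshold, because FAS is low per exonic base and the pseudocount is then large beside it. TNFRSF1A, the main TNF receptor, on chromosome 12 from 6328757 to 6342114, had 96.9 to 105.6 CPM in ethanol and 102.8 to 104.8 CPM in O/A, inside the ethanol range. Its log2(FC) was 0.03, with an interval from -0.03 to 0.10.

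TNFSF10, which encodes TRAIL, lies on chromosome 3 from 172505508 to 172523475 and was the gene with the fewest reads, at 247 to 402 counts per library. Its CPM was 15.7, 17.7, 21.1 and 18.9 in ethanol replicates 1 to 4 and 16.1, 17.2, 16.2 and 14.2 in O/A replicates 1 to 4. The groups overlapped, and ethanol replicate 1 lay lower than 3 of the 4 O/A libraries. The log2(FC) was -0.20 (SE 0.077, adjusted p = 0.0231 in edgeR), within the threshold, and the exact permutation test gave p = 0.143. Without ethanol replicate 1 it was -0.27 and past the threshold.

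FADD, the adaptor that links the receptors to caspase-8, lies on chromosome 11 from 70203296 to 70207390. Its CPM was 40.6, 37.3, 41.6 and 38.0 in ethanol replicates 1 to 4 and 20.9, 23.2, 23.0 and 23.9 in O/A replicates 1 to 4. All 4 O/A libraries lay well below the ethanol libraries, and O/A replicate 1 was the lowest. The log2(FC) was -0.79 (SE 0.055, adjusted p = 6.92e-18 in edgeR), and 4.67% of the genes tested had a lower one.

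CASP8, the initiator caspase of this pathway, lies on chromosome 2 from 201233443 to 201361836. It had 54.7, 57.0, 56.2 and 56.1 CPM in ethanol replicates 1 to 4, and 39.1, 40.7, 39.0 and 38.7 CPM in O/A replicates 1 to 4. The groups were apart with a small spread in each (SD 0.938 CPM in ethanol and 0.886 CPM in O/A, n = 4 each). The log2(FC) was -0.51 (SE 0.043, adjusted p = 1.07e-14 in edgeR), and 10.35% of the genes tested had a lower one.

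CFLAR, which encodes the caspase-8 inhibitor c-FLIP, lies on the same chromosome from 201116154 to 201176687. It had 76.3, 80.3, 77.8 and 82.3 CPM in ethanol replicates 1 to 4, and 79.0, 89.8, 79.3 and 84.5 CPM in O/A replicates 1 to 4. The groups overlapped, with O/A replicate 2 the highest, and the log2(FC) was 0.07, with an interval from -0.01 to 0.15. The counts are per gene, so the long and short forms of c-FLIP were not separated. RIPK1, the kinase of the TNF receptor complex, on chromosome 6 from 3063824 to 3115187, had 62.2 to 68.1 CPM in ethanol and 59.9 to 64.9 CPM in O/A. These ranges overlapped, and its log2(FC) was -0.07, with an interval from -0.15 to 0.01.

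**Figure D2:**
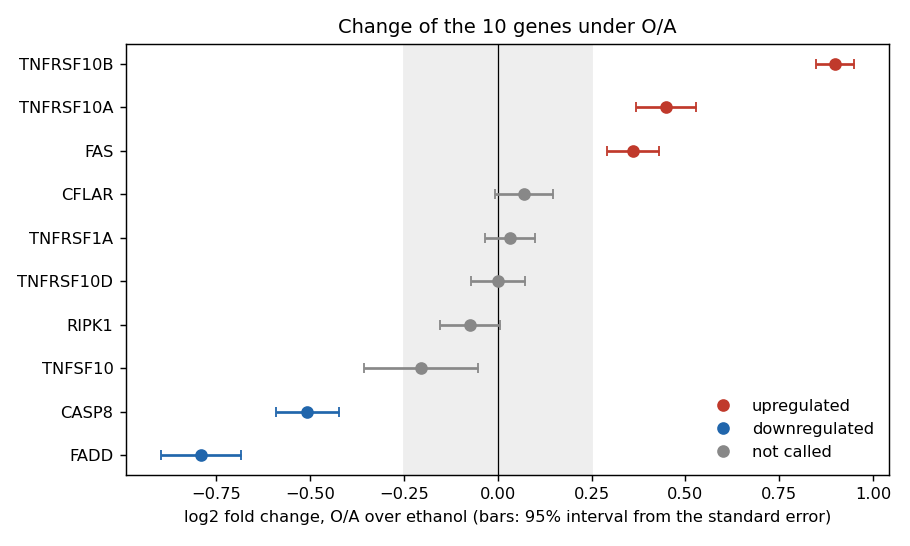
Log2 fold change of O/A over ethanol (x axis) of the 10 genes. Upregulated genes are red, downregulated genes blue and genes not called grey. Bars are 1.96 standard errors, derived from the F statistic of edgeR's test, and the shaded band is the threshold of 0.25. TNFRSF10B stands highest at 0.90 and FADD lowest at -0.79, and the bars of the 5 called genes lie outside the band.

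Some members overlap other genes, and whether counting used the strand is not given in the sources used here, so reads in shared stretches cannot be told apart. RHOBTB2, on the strand opposite to TNFRSF10B, held 595 to 1113 counts, 12.7% of those of TNFRSF10B over all libraries, and moved the other way (log2(FC) -0.58). Its mean was 977 counts in ethanol and 627.5 in O/A, beside 4516 and 8086 for TNFRSF10B, so its share was larger in ethanol. FAS overlaps ACTA2 on the opposite strand (133 to 180 counts, 9.54% of those of FAS) and STAMBPL1 on its own strand (61 to 78 counts, 4.52%). TNFRSF10A-DT, opposite TNFRSF10A, held 57 to 77 counts, 5.2% of those of TNFRSF10A. An unnamed gene opposite FADD held 11 to 36 counts, 4.65% of those of FADD, and FLACC1, opposite CASP8, held 3 to 16. Opposite CFLAR, IMPDH1P10 held 36 to 65 counts (3.01% of those of CFLAR) and CFLAR-AS1 22 to 41 (2.28%). Each of these genes held fewer counts than the member it overlaps, and what they contribute to the members' values was not tested.

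Levels were compared between genes per exonic base, in the FPKM values that the authors deposited. In ethanol TNFRSF10B was highest at 48.6 ± 0.801 FPKM (SD, n = 4), followed by TNFRSF1A at 24.5 ± 0.987, TNFRSF10D at 23.6 ± 0.525 and FADD at 23.4 ± 1.27 FPKM. The values of TNFRSF1A and TNFRSF10D overlapped across libraries, and so did those of TNFRSF10D and FADD. Next came TNFRSF10A at 19.9 ± 1.06, CASP8 at 7.85 ± 0.151, RIPK1 at 5.47 ± 0.228 and TNFSF10 at 5.41 ± 0.691 FPKM, of which RIPK1 and TNFSF10 overlapped. CFLAR at 3.57 ± 0.120 and FAS at 2.57 ± 0.0320 FPKM were lowest.

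On this scale the order in O/A changed in its upper part. TNFRSF10B stood at 87.8 ± 1.05 FPKM (SD, n = 4) and TNFRSF10A, at 26.3 ± 0.831 FPKM, now lay above TNFRSF1A (24.4 ± 0.270) and TNFRSF10D (22.9 ± 1.10), which overlapped each other. FADD dropped to 13.1 ± 0.721 and CASP8 to 5.35 ± 0.137 FPKM, the latter next to RIPK1 at 5.03 ± 0.205, and the lowest CASP8 value, 5.25 FPKM, barely exceeded the highest RIPK1 value, 5.24 FPKM. TNFSF10 (4.54 ± 0.368), CFLAR (3.64 ± 0.229) and FAS (3.19 ± 0.0914) remained the lowest.

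Several places in this order depend on the length used. The deposited exonic size of FAS, 29313 bases, is 7.93 times the length of its canonical transcript in GENCODE v44, 3696 bases, and those of RIPK1, CASP8 and TNFRSF1A are 2.98, 2.72 and 1.94 times theirs. Per base of the canonical transcript, FAS had 20.4 ± 0.228 in ethanol and 25.3 ± 0.715 in O/A (SD, n = 4), and CASP8 21.4 ± 0.414 and 14.6 ± 0.364. Counted this way, FAS lay just below CASP8 in ethanol and above it in O/A, and CFLAR was the lowest gene in both conditions. TNFRSF1A, at 47.2 ± 0.520 in O/A, then lay above TNFRSF10A at 28.7 ± 0.904, so that the place of TNFRSF10A above it in O/A did not hold. RIPK1, at 14.95 ± 0.602 in O/A, overlapped CASP8, and FADD went from rank 5 to rank 8 of the 10 genes. TNFRSF10B remained the highest, at 60.9 ± 1.01 in ethanol and 110.1 ± 1.31 in O/A. A gene's length shifts all libraries equally, so the change of 1 gene in counts, or of a ratio of 2 genes, does not depend on it. Sums and shares of several genes, the value of a ratio of 2 genes, and changes with a pseudocount on the FPKM scale, do depend on it.

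Sums and shares of the TRAIL receptor genes were taken in the deposited FPKM, so their values rest on its exonic sizes. The summed level rose from 90.3 to 93.1 FPKM in the ethanol libraries to 134.6 to 139.6 FPKM in the O/A libraries. TNFRSF10B made up 52.1% to 53.7% of this sum in ethanol and 63.3% to 64.5% in O/A. The share of the decoy TNFRSF10D was 24.95% to 26.2% in ethanol and 15.96% to 17.3% in O/A, and that of TNFRSF10A was 20.1% to 22.4% and 18.6% to 19.9%. TNFRSF10D thus took a smaller share of a larger sum at a level of its own that did not change detectably.

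Ratios within a library compare members without the scaling between libraries, and 4 of them were examined. Their values were taken in the deposited FPKM and rest on its exonic sizes, whereas their change between conditions does not. The ratio of CFLAR to CASP8, inhibitor to caspase, was 0.449, 0.453, 0.446 and 0.472 in ethanol replicates 1 to 4 and 0.652, 0.710, 0.655 and 0.703 in O/A replicates 1 to 4. Every O/A library lay above every ethanol library, a rise of 1.49-fold (log2 difference 0.58, standard error 0.038). As CFLAR itself was not called, most of this difference lies in the fall of CASP8.

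The ratio of the signalling receptor TNFRSF10B to the decoy TNFRSF10D was 2.03, 2.06, 2.05 and 2.11 in ethanol and 4.02, 3.89, 3.83 and 3.65 in O/A, again with no overlap. It rose 1.86-fold (log2 difference 0.90, standard error 0.031). TNFRSF10B to TNFRSF10A rose from 2.34 to 2.66 in the ethanol libraries to between 3.22 and 3.47 in O/A, with a log2 difference of 0.45 (SE 0.050), so the rise of TNFRSF10B was larger than that of TNFRSF10A. The ratio of the ligand TNFSF10 to TNFRSF10B fell from 0.0949 to 0.126 in ethanol to 0.0459 to 0.0569 in O/A, a log2 difference of -1.101 (SE 0.107). For each of the 4 ratios a two-sided exact permutation test gave p = 0.0286, also after Benjamini-Hochberg adjustment over the 4, the smallest p that the design allows. Each ratio holds TNFRSF10B or CASP8, whose libraries were already apart between conditions, so these p-values add no independent evidence to the single-gene results.

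**Figure D3:**
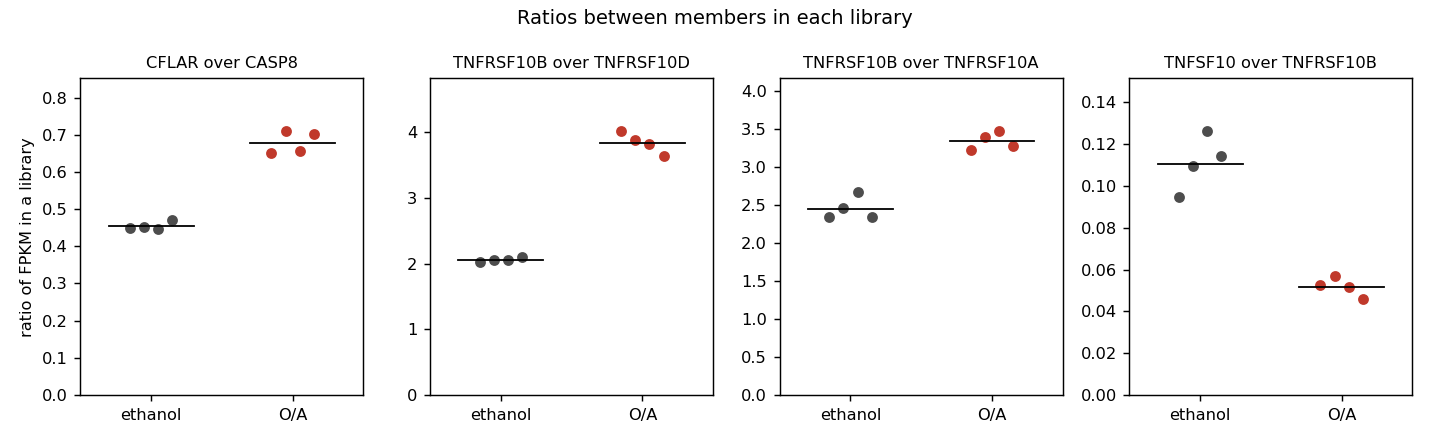
Ratio of the FPKM values of 2 members within each library (y axis from 0) for the 4 ethanol libraries (grey) and the 4 O/A libraries (red), with the geometric mean of each group as a line. In each panel the groups are apart: CFLAR over CASP8 goes from 0.455 to 0.679 and TNFRSF10B over TNFRSF10D from 2.06 to 3.84.

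Other genes of the pathway were examined in 4 lists, with 30 of 37 genes expressed highly enough to be tested. Of these 30, 10 were upregulated and 4 downregulated (46.7% called, against 34.7% of all genes tested), with a median log2(FC) of 0.13. Among 8 other receptors, 3 were tested. NGFR, a receptor of neurotrophins with a death domain, rose (log2(FC) 0.76, adjusted p = 3.15e-04 in edgeR), from 26 to 40 counts in the ethanol libraries to 47 to 53 in the O/A libraries. TNFRSF21 (DR6) and TNFRSF25 (DR3) had a log2(FC) of -0.17 each, within the threshold. TNFRSF10C, TNFRSF11B, TNFRSF1B, TNFRSF6B and EDAR had at most 6 counts in any library and were not tested.

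Among 5 other ligands, TNFSF15, which encodes TL1A, the ligand of DR3, rose most of the pathway genes tested. It had 60, 50, 53 and 81 counts in ethanol replicates 1 to 4 and 230, 256, 276 and 263 in O/A replicates 1 to 4, all far above the ethanol libraries. The log2(FC) was 2.13 (SE 0.106, adjusted p = 1.76e-23 in edgeR). TNF, with 75 to 101 counts per library, and LTA, with 3 to 14, were not called. FASLG had 1 count in all 8 libraries together and TNFSF12 at most 3 in any, so neither was tested.

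The 16 adaptors and ubiquitin regulators of the receptor complexes were all tested, and 6 rose and 2 fell. BIRC3, which encodes the ubiquitin ligase cIAP2 and is a known target of NF-kB, rose from 492 to 617 counts in ethanol to 1446 to 1546 counts in O/A, a log2(FC) of 1.54 (SE 0.045, adjusted p = 3.38e-33 in edgeR). BIRC2 (cIAP1) had a log2(FC) of 0.51 (adjusted p = 1.08e-17), the deubiquitinase CYLD 0.60 (1.05e-18), TNFAIP3, which encodes the NF-kB inhibitor A20, 0.38 (2.57e-12) and the kinase MAP3K7 (TAK1) 0.35 (9.40e-12), each upregulated. TRAF2, the adaptor that brings the cIAPs to the TNF receptor, fell (log2(FC) -0.48, adjusted p = 1.01e-07).

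The 3 subunits of LUBAC, the ligase that builds linear ubiquitin chains on these complexes, moved apart. RBCK1 (HOIL-1) rose, with a log2(FC) of 0.82 (SE 0.030, adjusted p = 3.21e-29 in edgeR). RNF31 (HOIP), the catalytic subunit, fell, with a log2(FC) of -0.75 (SE 0.166, adjusted p = 3.58e-04), on only 49 to 153 counts per library. O/A replicate 4 and ethanol replicate 3 of RNF31 overlapped, at 74 and 70 counts. SHARPIN had a log2(FC) of -0.04 and was not called.

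Of 8 caspases and other genes downstream of or beside caspase-8, 2 rose and 2 fell. XIAP, an inhibitor of caspases, rose (log2(FC) 0.38, adjusted p = 1.72e-13 in edgeR), as did CASP9, the initiator of the mitochondrial pathway (0.32, adjusted p = 0.0247), on 66 to 117 counts per library. The call of CASP9 was lost in 6 of 15 alternatives, among them DESeq2 (adjusted p = 0.0501), and fits without ethanol replicate 1 (0.0515), ethanol replicate 3 (0.132) or O/A replicate 4 (0.0699). MLKL, the effector of necroptosis, fell (log2(FC) -0.57, adjusted p = 3.72e-11), and so did the effector caspase CASP6 (-0.26, adjusted p = 7.92e-05). CASP6 lay close to the threshold and within it without ethanol replicate 1 (-0.2498), ethanol replicate 4 (-0.24), O/A replicate 2 (-0.23) or O/A replicate 3 (-0.2486), and under quantile normalization (-0.2252). CASP10 (0.08), BID (-0.01), RIPK3 (-0.24) and DIABLO (0.34) were not called.

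The genes of the CHOP axis were examined because TNFRSF10B has been described as a CHOP target. DDIT3, which encodes CHOP, had 288, 241, 274 and 290 counts in ethanol replicates 1 to 4 and 3907, 3851, 4269 and 3632 in O/A replicates 1 to 4, a log2(FC) of 3.90 (SE 0.045, adjusted p = 1.41e-47 in edgeR). Of the 9 genes, 7 were upregulated and 1, BCL2L11, was downregulated, against 15.8% and 18.9% of all genes tested. ATF4, the factor upstream of CHOP, had a log2(FC) of 1.54, and CHAC1, which degrades glutathione, had the highest at 4.88. BBC3, which encodes the apoptosis activator PUMA, rose with a log2(FC) of 1.00 (adjusted p = 1.29e-12), and ERO1A, an oxidase of the endoplasmic reticulum, had 0.10 and was not called. BCL2L11, which encodes BIM, had a log2(FC) of -0.27 (adjusted p = 0.00853), and its call was lost without ethanol replicate 3 (-0.19) or O/A replicate 1 (-0.24). TNFRSF10B, at 0.90, lay below each of the 7 upregulated genes, of which BBC3 was the lowest, and above only ERO1A and BCL2L11.

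**Figure D4:**
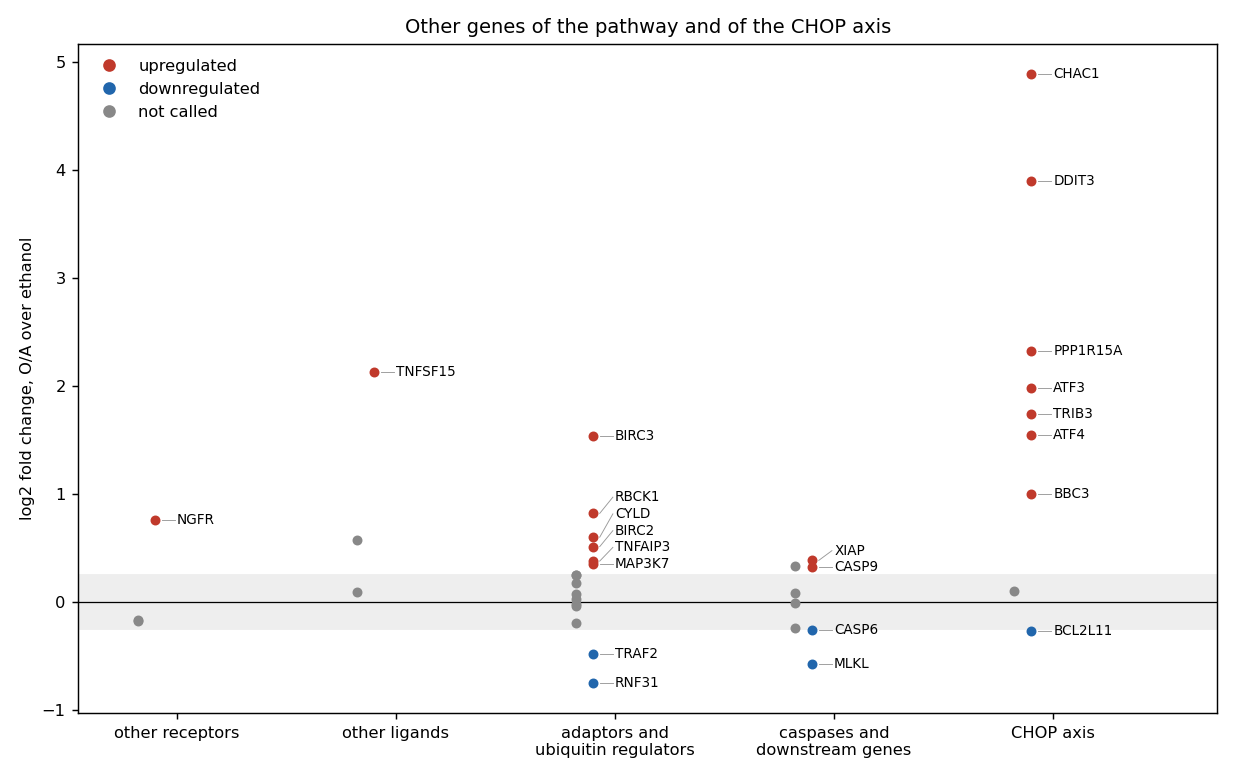
Log2 fold change of O/A over ethanol (y axis) of the tested genes of the 4 pathway lists and of the CHOP axis, in red for upregulated, blue for downregulated and grey for genes not called, with called genes named; the shaded band is the threshold of 0.25. TNFSF15 at 2.13 and BIRC3 at 1.54 stand above the other pathway genes, while DDIT3 at 3.90 and CHAC1 at 4.88 lead the CHOP axis.

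TNFRSF10B, TNFRSF10D and TNFRSF10A lie in a row on chromosome 8, and the genes around them were compared with them. Of 7 other genes with a symbol that were tested within 250 kb of TNFRSF10B or TNFRSF10A, 2 were upregulated and 1 downregulated, with a median log2(FC) of 0.03. Of all genes tested, 15.8% were upregulated and 18.9% downregulated. CHILL1, on the strand of TNFRSF10B and with a start 5.5 kb from its own, rose from 21 to 27 counts in ethanol to 38 to 58 counts in O/A (log2(FC) 1.05, standard error 0.201, adjusted p = 1.41e-05 in edgeR). ENTPD4 rose at the far end of the window (0.32), and RHOBTB2, which overlaps TNFRSF10B, fell (-0.58, adjusted p = 1.34e-15). TNFRSF10D, between both risen receptors, and CHMP7 (0.07) and R3HCC1 (0.03), beyond TNFRSF10A, were not called.

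CFLAR, CASP10 and CASP8 are likewise neighbours, on chromosome 2. Only CASP8 fell among these 3, with CASP10, another initiator caspase, at a log2(FC) of 0.08. Of 11 tested genes within 250 kb of CASP8 or CFLAR and other than these, CASP10 among them, 1 was upregulated and 1 downregulated. Their median log2(FC) was 0.02, and the rule called 34.7% of all genes tested. The downregulated gene, NIF3L1, had -0.32 (adjusted p = 3.83e-05 in edgeR). The upregulated gene was CFLAR-AS1, antisense to CFLAR, at 0.49 (adjusted p = 0.0318) on 22 to 41 counts per library, and its call was lost in 8 of 15 alternatives, 5 of them fits without ethanol replicate 3 (adjusted p = 0.0930), ethanol replicate 4 (0.0958), O/A replicate 1 (0.0725), O/A replicate 3 (0.0523) or O/A replicate 4 (0.0524).

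**Figure D5:**
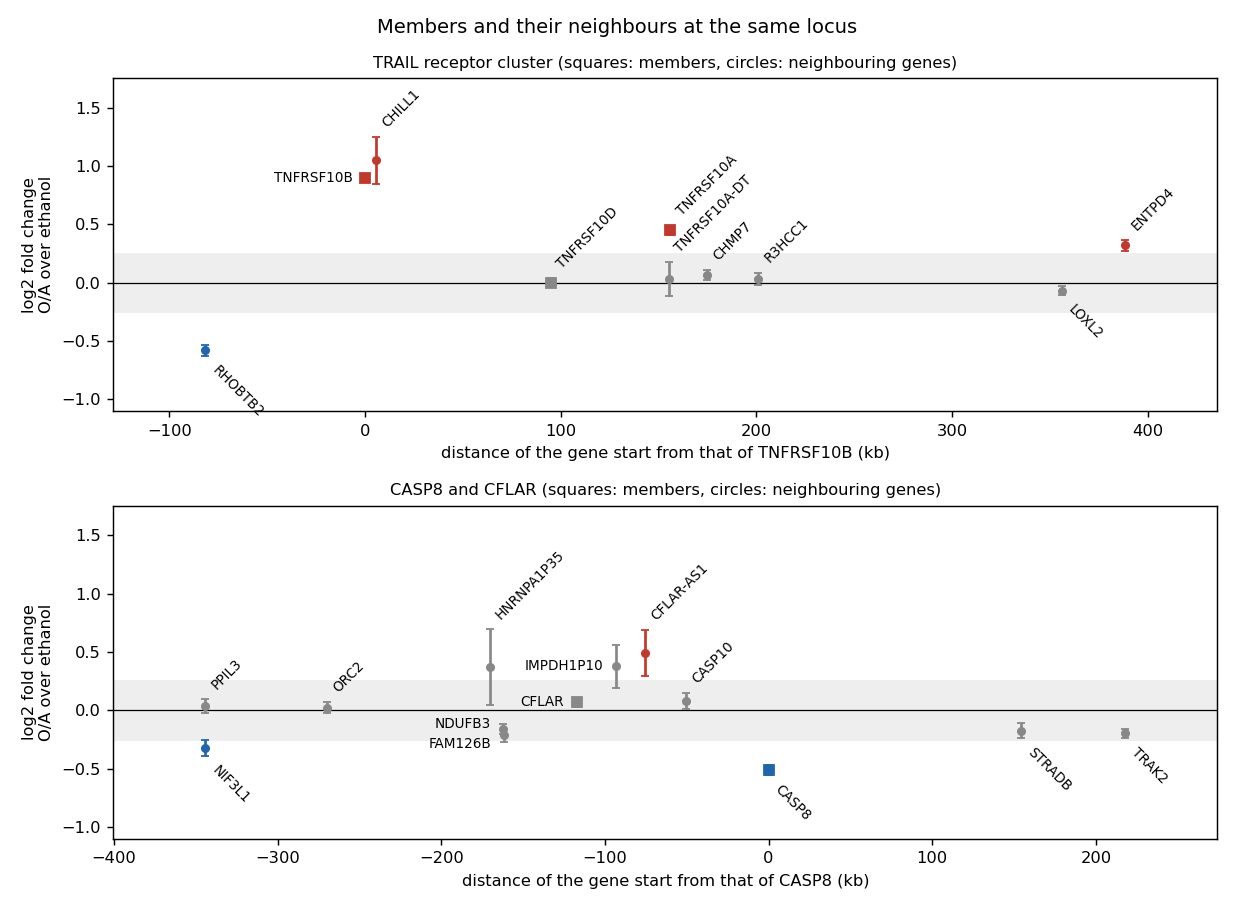
Log2 fold change of O/A over ethanol (y axis, bars of 1 standard error) against the distance of each gene start from that of TNFRSF10B (upper panel) or CASP8 (lower panel) in kb, with members as squares and neighbouring genes as circles, in red for upregulated, blue for downregulated and grey for genes not called. TNFRSF10B at 0.90 and CHILL1 at 1.05 stand side by side, TNFRSF10D lies at 0.00 between the risen receptors, and CASP8 at -0.51 is the lowest point of its panel.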

How the data were processed

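The 8 mRNA libraries, 4 per condition, were grouped by their sample labels. The authors selected polyadenylated RNA, used HISAT2 2.0.1 to align the reads to GRCh38.p13 and HTSeq 0.6.1 to count them per gene (versions from the paper and the submitters' processing notes). The deposited counts are raw, at 17210404 to 20999927 per library. The authors deposited FPKM values made from those counts (each within 0.005 of the count over exonic size and library total). Their table of DESeq2 fold changes and p-values was not used.

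The main test was the robust quasi-likelihood test of edgeR 4.0.16 (R 4.3.3) after TMM scaling, with Benjamini-Hochberg adjustment over the 14893 genes that reached 10 counts in 4 or more libraries. The standard error of a gene's log2(FC) was its absolute value divided by the square root of the F statistic of this test. Missing symbols were filled from GENCODE v44, which held 61757 of the 61806 gene IDs, 60636 of them with identical coordinates. The tests were tested on simulated data for O/A against ethanol with 14893 genes, where edgeR recovered 75 of 100 genes changed by a log2(FC) of 0.5 and 91 of 100 changed by 1, with 10 false calls. Recovery was scored by an adjusted p of 0.05 or less alone, with 200 genes changed, whereas 7999 genes passed that p in the data. These figures therefore do not give the error rates of the calls made here. Libraries of a condition differed by more than sampling noise (chi-square per degree of freedom 1.76 to 5.74), so none was a copy of another. Alternatives were DESeq2 1.42.0, limma 3.58.1 on log2(FPKM + 0.1) and log2(FPKM + 1), other filters and scalings, the replicate block, other thresholds and each library left out. The length of the canonical transcript was added after seeing the data.

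A few genes were taken out of the lists and of every list count, and are not reported here. The members and lists were chosen with earlier results of these data known. Genes named are the members, the 2 largest rises and falls called in each list, DDIT3, ATF4, called locus neighbours and genes not tested; the other list genes with values were added after their values were seen.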

Additional observations from a re-analysis of the deposited data

Results flagged for a closer look

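In 3 of 66 groups of 4 libraries, over the genes named by rule and the 4 ratios, 1 library lay far from the other 3 for its group's range, where chance gives about 3.3. In O/A replicate 3, TNFRSF1A stood at 102.8 CPM, while the other O/A libraries had 104.6 to 104.8 CPM, a small gap that stands out because those 3 values lie close together. In O/A replicate 4, RNF31 stood at 4.25 CPM, while the other O/A libraries had 2.82 to 2.97 CPM, and without O/A replicate 4 its log2(FC) was -0.91, against -0.75 with it. For RHOBTB2, O/A replicate 1 was highest at 36.35 CPM, next to 34.2 to 34.3 CPM in the others. TNFRSF10B, TNFRSF10A, FAS, FADD and CASP8 had no such library in either condition.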

How the results depend on the processing

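TNFRSF10B, TNFRSF10A, FADD and CASP8 kept their direction and their call in 16 of 16 alternatives, with a log2(FC) from 0.80 to 0.92, 0.39 to 0.48, -0.83 to -0.75 and -0.55 to -0.48, and FAS kept its direction in 15 of 15, from 0.23 to 0.39. Above an absolute log2(FC) of 1, 0 members were called (edgeR), as were 797 of all genes (382 up, 415 down), 2 pathway genes (2 up, 0 down) and, downwards, 0 CHOP axis genes. No alternative brought a member above 1, and 6 members had an unadjusted p under 0.05. Without a fold change threshold 7999 genes were called, 3868 of them upwards, and 7 pathway genes downwards. With a mean FPKM of at least 5, where fewer genes are tested, 2182 genes were called (1097 up, 1085 down), 7 pathway genes (6 up, 1 down), 3 locus neighbours (1 up) and 0 CHOP axis genes downwards. On log2(FPKM + 1), 1517 genes were upregulated, 3 locus neighbours were called (1 up) and 0 CHOP axis genes fell, the last also under quantile normalization. TNFRSF10D lay near 0 and changed sign to -0.0395 under quantile normalization, -0.015 under the filter on mean FPKM, -0.0041 with no filter, and -0.046 and -0.044 with a pseudocount of 0.1 and 1 on the FPKM scale, and ran from -0.0255 to 0.0302 when 1 library was left out. TNFRSF1A changed sign to -0.0101, -0.0097 and -0.0018 on log2(FPKM + 0.1), on log2(FPKM + 1) and under quantile normalization. Without 1 library, 5 or 6 members, 4945 to 5071 genes, 3 to 5 pathway genes downwards and 0 to 1 CHOP axis genes downwards (0 without ethanol replicate 3 or O/A replicate 1) were called. The 4 ratios kept their direction, CFLAR over CASP8 from 0.56 to 0.60 in log2. Why these values moved was not tested.

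Libraries were not paired by number, since those with the same number correlated at 0.068, -0.004, -0.059 and 0.12 and not every library correlated best with its own number. With the replicate block 5160 genes were called, 5117 of them shared, and the 5 members called were the same. The depth leaves TNFRSF10C, FASLG and the other genes not tested without a detectable change.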
